A study of Spinacia oleracea with 12 samples.

Results

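The values described here are those of 6 spinach genes of the early flavonoid pathway, out of 25495 genes measured by RNA sequencing in leaf and root. Of the 6, the study's tables name 3 as chalcone synthases (Spo25740, Spo13473 and Spo27151), 2 as chalcone-flavonone isomerases (Spo18570 and Spo26569) and 1 as naringenin 3-dioxygenase, also called flavanone 3-hydroxylase (Spo26380). They were chosen by their root values: all 6 stand in the study's list of genes higher in root under high N, so the root values by N supply are given as a description, with no test. Plants of the cultivar Banjo were grown for 6 weeks on a Turface medium with nitrogen (N) supplied as calcium nitrate at 200 ppm (high N) or 50 ppm (low N), and calcium chloride balanced the calcium between the supplies. Leaf and root were each taken from 3 plants at each supply, which gave 4 groups of 3 libraries, 12 in all. Libraries were placed in groups by their names, since the tissue tag of 6 libraries and the treatment tag of 6 libraries in the sample records contradict the names. Each library is bulk tissue, in which fewer cells of a type and less RNA per cell cannot be told apart.

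Chalcone synthase joins an activated cinnamic acid, made from phenylalanine, with malonyl-CoA units, and so opens the flavonoid branch of phenylpropanoid metabolism. Chalcone isomerase closes the chalcone into the flavanone naringenin, and flavanone 3-hydroxylase turns naringenin into a dihydroflavonol, from which flavonols, anthocyanins and condensed tannins are made. Plants usually carry several chalcone synthase genes, and flavonoids are known in many species to respond to light and to mineral supply.

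Values are FPKM (fragments per kilobase of gene with the fragments on genes in the library as the scale). They turned out to be exact multiples of 1 fragment, so the fragments and gene lengths behind them were worked back, with 15627994 to 18608172 fragments on genes per library. The leaf markers, 5 genes of photosynthesis and carbon fixation, summed to 4722 to 7045 FPKM in high N leaf, 8612 to 11235 in low N leaf and 92.5 to 183 in root libraries, and nearly all of the root sum was 1 of them, the chloroplastic carbonic anhydrase Spo10751 (91.2 to 181 FPKM). The other 4 leaf markers reached at most 1.97 FPKM in any root library. The root markers, 2 NRT2.1 nitrate transporters, summed to 0.864 to 102.8 FPKM in high N root and 171 to 279 in low N root. They summed to at most 0.274 in leaf. The study reports both as induced in root by N stress, so within root their level also follows N supply. High N root 3 stood apart from its group, with 101 FPKM of the transporter Spo09968 against 1.28 and 0.198 in the other two, so root values are also given without it.

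In root, chalcone synthase transcripts were abundant, and the 3 genes kept a fixed order. Spo27151 measured 429, 484 and 603 FPKM in the high N root libraries and 103, 107 and 57.4 FPKM in the low N root libraries. Spo25740 measured 239.6, 242 and 312 FPKM under high N and 46.4, 59.3 and 35.8 FPKM under low N. Spo13473 was the lowest, with 108, 127 and 143 FPKM under high N and 32.5, 31.9 and 11.2 FPKM under low N. For each of the 3 genes every high N root library lay above every low N root library, and low N root 3 was the lowest root library. The group means were 505 ± 88.7 FPKM against 89.2 ± 27.6 FPKM for Spo27151 (SD, n = 3 and 3), 265 ± 40.9 against 47.2 ± 11.8 for Spo25740 and 126 ± 17.4 against 25.2 ± 12.1 for Spo13473.

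Of the 3 synthases, Spo27151 held the steadiest share of their summed FPKM in root. It held 54.0 to 57.0% in the 6 root libraries, while Spo25740 held 25.5 to 34.3% and Spo13473 held 10.7 to 17.9%. The lowest share of Spo13473 was in low N root 3, where its own value was also lowest. Whether the 3 genes are similar enough in sequence to share reads was not tested, so the split between them is less certain than their sum. That sum ran from 777 to 1057 FPKM in high N root and from 104 to 198 FPKM in low N root.

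The isomerase genes are named for the enzyme that acts on the product of chalcone synthase. Spo18570 measured 546, 781 and 611 FPKM in high N root and 96.1, 129.8 and 63.6 FPKM in low N root. Spo26569 measured 274, 311 and 399.6 FPKM in high N root and 63.2, 116 and 50.6 FPKM in low N root. The groups did not overlap for either gene. Spo26569 carries the name chalcone-flavonone isomerase 3, and the Arabidopsis protein of that name is an isomerase-like protein that assists chalcone synthase and lacks isomerase activity itself. Spo18570 made up 66.2 ± 5.56% of the summed isomerase FPKM of root under high N and 56.3 ± 3.82% under low N (SD, n = 3 each). The shares of the groups nearly met, with a lowest value of 60.4% under high N and a highest of 60.3% under low N.

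Flavanone 3-hydroxylase had the highest mean of the 6 genes in root. Spo26380 measured 718, 728 and 949 FPKM in high N root and 227, 177 and 135 FPKM in low N root, again with no overlap. Of the 25495 genes, 70 had a higher mean in root under high N, and 571 had one under low N. At the other end, Spo13473 was exceeded by 918 genes under high N and by 5414 under low N.

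**Figure D1:**
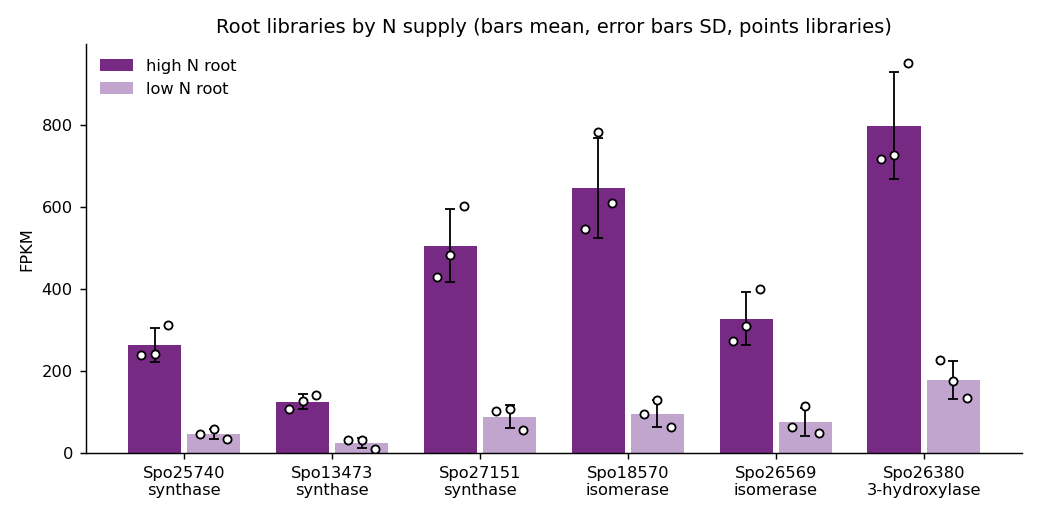
FPKM of the 6 genes in the root libraries, with high N in dark and low N in light purple. Bars are means of 3 libraries, error bars are SDs and points are libraries, and for each gene the lowest high N point lies above the highest low N point.

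By mean FPKM, which allows for gene length, the order in both root groups was Spo26380, Spo18570, Spo27151, Spo26569, Spo25740, Spo13473. Not every step of that order held beyond the spread. Under high N the libraries of neighbours were separate only between Spo27151 and Spo26569 and between Spo25740 and Spo13473. Under low N they were separate only between Spo26380 and Spo18570 and between Spo25740 and Spo13473.

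The root difference was of a similar size for all 6 genes. The log2 fold change of high N over low N, on log2(FPKM + 1), was 2.77 for Spo18570, 2.53 for Spo27151, 2.48 for Spo25740, 2.41 for Spo13473, 2.17 for Spo26380 and 2.15 for Spo26569. Their median was 2.44, against -0.05 over all 17881 genes compared in root. All 6 had separate libraries, as had 6.14% of all genes in that direction, and 4.63% of all genes were higher under high N at the study's threshold, an unadjusted p-value below 0.05, by limma. As ratios of mean FPKM the differences ran from 4.28-fold for Spo26569 to 6.70-fold for Spo18570. The ratios ran from 3.81 to 6.88 without high N root 3 and from 3.65 to 5.72 without low N root 3. Together the 6 genes took 0.320 to 0.418% of the fragments of a root library under high N and 0.0491 to 0.0842% under low N.

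The study's list that holds the 6 genes compares root libraries, not leaf libraries, though earlier results of these data were known when the genes were chosen. In leaf, 4 of the 6 genes were barely detected. Spo13473 had 0 fragments in all 6 leaf libraries. Spo25740 had 3, 3 and 2 fragments in high N leaf and 0, 2 and 1 in low N leaf, which is at most 0.120 FPKM. Spo27151 had 12, 1 and 6 fragments in high N leaf and 0, 8 and 3 in low N leaf, at most 0.508 FPKM. These 3 are the chalcone synthases, so the gene set that supplied 104 FPKM or more in every root library supplied at most 0.628 FPKM in any leaf library. Flavanone 3-hydroxylase, Spo26380, had 7, 6 and 1 fragments in high N leaf and 3, 2 and 5 in low N leaf, from 0.0358 to 0.282 FPKM. A count of 3 fragments was taken as the smallest that shows detection, and this floor, like the counting intervals given here, covers counting error only.

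The isomerase genes were different, being clearly expressed in leaf and higher there under low N. Spo18570 measured 5.23, 6.24 and 7.89 FPKM in high N leaf and 9.32, 12.5 and 23.1 FPKM in low N leaf. Spo26569 measured 2.69, 5.42 and 4.63 FPKM in high N leaf and 6.46, 10.02 and 13.3 FPKM in low N leaf. For both genes every high N leaf library lay below every low N leaf library, the reverse of their order in root. The summed leaf markers were likewise lower in every high N leaf library, as was each of them except the carbonic anhydrase Spo10751. That gene went the other way, with 446, 208 and 283 FPKM in high N leaf and 133, 146 and 125 FPKM in low N leaf. The part of the leaf markers in the isomerase values was not tested. The values rest on 105 to 513 fragments per library for Spo18570 and 45 to 246 for Spo26569.

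These 2 isomerase genes were also the only members past the filter on low values in leaf (a mean of at least 1 FPKM in the libraries compared). By limma, high N against low N gave a log2 fold change of -1.02 (SE 0.33) for Spo18570 and -1.05 (SE 0.32) for Spo26569, both at an unadjusted p-value below 0.05. Among the 16522 genes tested in leaf, 11.2% passed that threshold, 6.48% of all passed it in the same direction, and 10.5% were lower under high N with separate libraries. Neither isomerase passed after Benjamini-Hochberg adjustment over all genes in limma (adjusted p = 0.337 and 0.325), nor did any other gene, 0 of 16522, against 1850 at the unadjusted threshold. Other fits did give calls among all genes in leaf: 3 genes with voom on fragments, 14 with all 4 groups in 1 fit, 55 with array weights and 41 without low N leaf 1, and neither isomerase was among them. Without high N leaf 1 the log2 fold change of Spo18570 was -0.90 and it no longer passed the unadjusted threshold (limma adjusted p = 0.551). Without low N leaf 3, its highest library, it was -0.68 (limma adjusted p = 0.377). With each leaf library left out in turn, the log2 fold change ranged from -1.29 to -0.68 for Spo18570 and from -1.30 to -0.81 for Spo26569. In means, the low N leaf libraries held 2.32 times the FPKM of the high N leaf libraries for Spo18570 and 2.34 times for Spo26569.

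**Figure D2:**
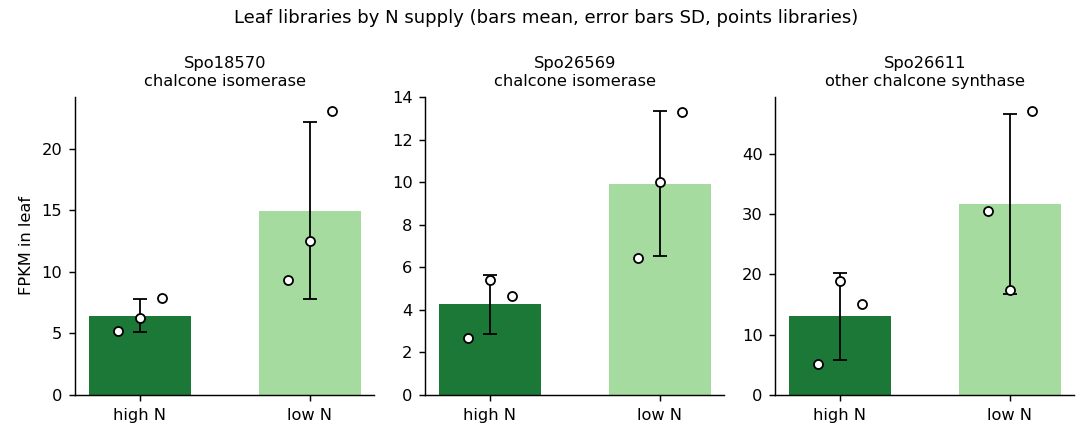
FPKM in the leaf libraries of the isomerase genes Spo18570 and Spo26569 and of the further chalcone synthase Spo26611, by N supply. Bars are means of 3 libraries, error bars are SDs and points are libraries, each panel with its own axis, and the points of the isomerases do not overlap between supplies while those of Spo26611 do.

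Root and leaf were also compared, averaged over both N supplies. The root libraries chose the genes, and 4 of them cleared the low-value filter only because of root, so these differences are a description with no test. All 6 genes were higher in every root library than in any leaf library. By limma over all 12 libraries the root minus leaf difference on log2(FPKM + 1) was 8.35 (SE 0.14) for Spo26380, 7.45 (SE 0.18) for Spo27151, 6.71 (SE 0.13) for Spo25740, 5.78 (SE 0.22) for Spo13473, 4.54 (SE 0.23) for Spo18570 and 4.39 (SE 0.24) for Spo26569. Most genes differed between these tissues: of 18411 tested, 57.9% were higher in root at an adjusted p-value below 0.05, and 40.8% were higher with separate libraries. The median difference over all genes tested was 0.54, and median-of-ratios scaling brought it to 0.05.

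The added 1 FPKM holds down differences against values near 0, so ratios of mean FPKM are given too. Mean FPKM over the root libraries was 3213 times that over the leaf libraries for Spo26380 (95% exact Poisson interval of the leaf fragments, 2108 to 4894, from 24 of them). It was 2276 times for Spo25740 (1229 to 4403, from 11 leaf fragments) and 1464 times for Spo27151 (1013 to 2144, from 30 leaf fragments). Spo13473, with 0 leaf fragments, was at least 2899-fold higher in root at the exact Poisson limit used for the other genes. Against a floor of 3 fragments over the 6 leaf libraries together, its ratio was 3670. The isomerases differed far less, 34.6-fold for Spo18570 and 28.6-fold for Spo26569.

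**Figure D3:**
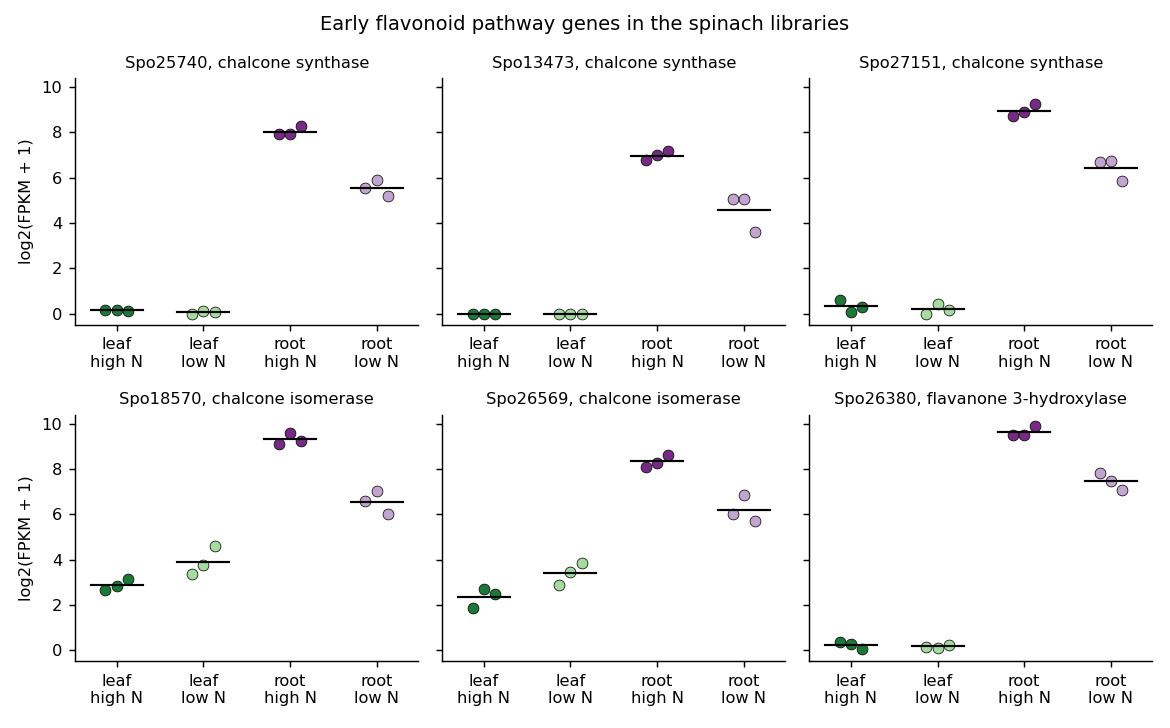
log2(FPKM + 1) of each of the 6 genes in the 12 libraries, by tissue and N supply. Points are libraries and lines are group means of 3, and the isomerases Spo18570 and Spo26569 lie between 1.88 and 4.59 in leaf while the other 4 genes stay at 0.59 or lower there.

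Among these 6 genes alone, the shares of the summed FPKM differed between the tissues. The isomerases held 28.0 to 40.9% of the summed FPKM of the 6 genes in root libraries and 89.7 to 99.2% in leaf libraries. The 3 chalcone synthases held 29.6 to 35.0% in root and at most 7.11% in leaf. Spo26380 held 27.2 to 39.9% in root and at most 3.19% in leaf. The split within the isomerases gave no such gap, with Spo18570 at 61.2 ± 6.92% of isomerase FPKM in root and 60.1 ± 4.89% in leaf (SD, n = 6 each). The difference of 1.12 percentage points had p = 0.745 in a two-sided exact permutation test within N supply, which can give 0.005 at the least.

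Another gene that the study's tables name chalcone synthase, Spo26611, was expressed in leaf. Those tables list genes called for a difference, so synthase or isomerase genes outside them were not looked at. It measured 5.07, 18.9 and 15.03 FPKM in high N leaf and 30.4, 17.4 and 47.1 FPKM in low N leaf. In root it measured 0.0647, 0.0329 and 0.612 FPKM under high N and 0.416, 0.0571 and 0.587 FPKM under low N. Root and leaf libraries did not overlap, and the root minus leaf difference on log2(FPKM + 1) was -3.94 (SE 0.31), given with no test because the gene passed the filter only through leaf. Of the summed FPKM of the 4 genes with that name in the study's tables, Spo26611 held 89.0 to 100% in leaf libraries and 0.00386 to 0.559% in root libraries.

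With Spo26611 counted, the summed levels of these synthase genes and of the isomerase genes Spo18570 and Spo26569 were of the same order in both tissues. Further genes of either kind could change these sums. The isomerase sum includes Spo26569, whose Arabidopsis namesake lacks isomerase activity, and the ratio to Spo18570 alone was not worked out. Summed chalcone synthase FPKM was 0.719 to 1.93 times summed isomerase FPKM in leaf and 0.782 to 1.15 times in root. No such match was seen for flavanone 3-hydroxylase, since isomerase FPKM was 0.702 to 1.501 times that of Spo26380 in root and 28.1 to 349 times in leaf. Another gene, Spo22544, is named flavonol synthase/flavanone 3-hydroxylase and reached at most 0.215 FPKM in leaf. Whether any further gene with that function is expressed in leaf was not tested. In leaf Spo26611 had a log2 fold change of -1.28 for high N against low N in limma (SE 0.51, adjusted p = 0.420), with overlap between low N leaf 2 and high N leaf 2.

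**Figure D4:**
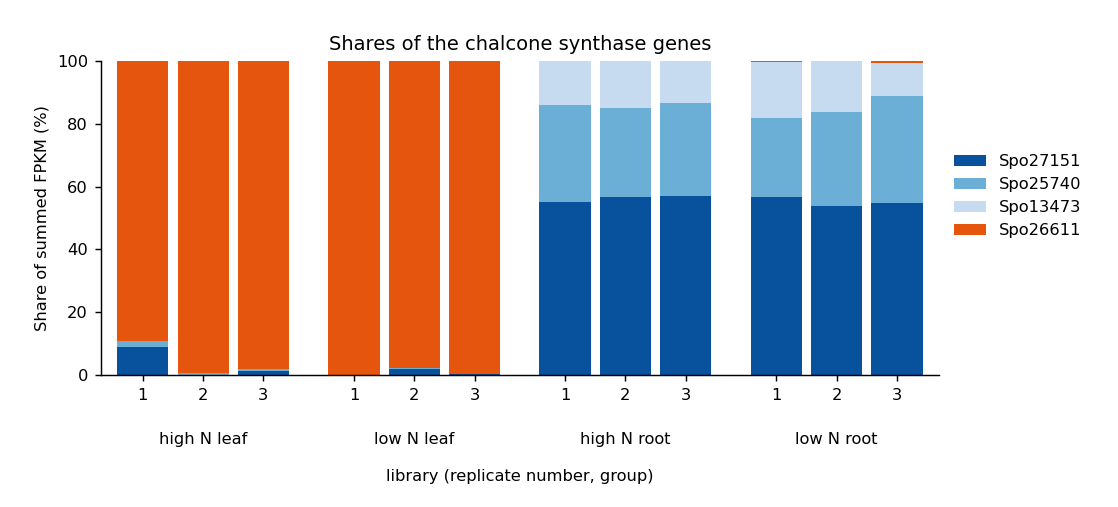
Share, in percent, of each of the 4 genes named chalcone synthase in their summed FPKM, with 1 bar per library. Spo26611 holds 89.0% or more of every leaf bar, and Spo27151, Spo25740 and Spo13473 hold nearly all of every root bar.

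The other steps of the pathway were followed in 29 genes from the study's tables, Spo26611 among them. The study picked all of them for a difference between N supplies in these libraries, so their counts are no independent evidence of a direction. In leaf 22 of the 29 passed the filter, of which 9 were lower and 2 higher under high N at an unadjusted p-value below 0.05 by limma, beside the background of 6.48% and 4.72%. In root 25 passed, of which 15 were higher and 1 lower, beside 4.63% and 6.52%. Their median log2 fold change was -0.63 in leaf and 1.05 in root, against -0.04 and -0.05 over all genes tested. Between tissues 28 passed, and 20 were higher and 4 lower in root at an adjusted p-value below 0.05, beside 57.9% and 18.3%, with a median difference of 2.30 against 0.54.

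Upstream of chalcone synthase stand phenylalanine ammonia-lyase, which opens phenylpropanoid metabolism, and 4-coumarate-CoA ligase, which activates the cinnamic acids. The lyase gene Spo16743 measured 28.3, 31.7 and 35.8 FPKM in high N leaf and 104, 60.2 and 46.7 FPKM in low N leaf. In root it measured 792, 645 and 1030.4 FPKM under high N and 988, 662 and 603 FPKM under low N. It was thus lower under high N in leaf with separate libraries (log2 fold change -1.04, limma adjusted p = 0.305), while in root the groups overlapped (0.14, SE 0.28). In high N root its mean of 823 FPKM was close to the 798 FPKM of Spo26380.

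The ligase gene Spo10338 had the pattern of the isomerases. It measured 6.34, 5.31 and 4.04 FPKM in high N leaf and 16.3, 8.84 and 10.8 FPKM in low N leaf, and limma gave -1.03 on the log2 scale (adjusted p = 0.273). In root it measured 364, 373 and 506 FPKM under high N and 201, 183 and 94.0 FPKM under low N, or 1.43 on the log2 scale. The libraries were separate in both tissues, in opposite directions. All 3 genes of phenylalanine supply, a shikimate kinase (Spo26785) and the arogenate dehydratases Spo07069 and Spo11052, were lower under high N in leaf with log2 fold changes of -0.66 to -0.98 (limma adjusted p = 0.202 to 0.428). In root the same 3 had log2 fold changes of -0.33 to 0.26, with overlapping libraries.

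Downstream genes were mixed in tissue and, within leaf, in direction. In root, the filter kept 4 later flavonoid genes and 4 genes of flavonoid decoration (transfer of methyl, sugar or sulfate groups). At an unadjusted p-value below 0.05 by limma, 2 of the former and all 4 of the latter passed, each higher with high N. Over both sets the root log2 fold changes ran from -0.04 for Spo11397 to 1.57 for Spo08889. The study picked these genes for N differences. Spo22544, named flavonol synthase/flavanone 3-hydroxylase, measured 32.0, 17.6 and 14.3 FPKM in high N root and 11.6, 5.32 and 4.80 FPKM in low N root. It reached at most 0.215 FPKM in leaf, so it shared the tissue and direction of Spo26380 at a far lower level. The glucosyltransferase gene Spo16205, whose enzyme class attaches sugar to flavonoids, was a leaf gene, with 6.64, 5.602 and 8.43 FPKM in high N leaf and 36.9, 26.8 and 24.8 FPKM in low N leaf, and at most 0.857 FPKM in root. Its leaf log2 fold change of -1.94 (limma adjusted p = 0.108) was the lowest of the pathway list. Leucoanthocyanidin reductase Spo08072, an enzyme of tannin synthesis, went the other way in leaf, with 6.58, 8.17 and 4.40 FPKM under high N and 3.15, 0.463 and 0.466 FPKM under low N.

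In root the 6 genes also moved together in some libraries of a group, though not in all. In low N root 3 all 6 lay below their group means, by a median of 0.52 on the log2(FPKM + 1) scale, where the median over all genes was 0.02 above. In low N root 2 all 6 lay above, with a median deviation of 0.41, and 5 lay above in low N root 1. The deviations of a gene sum to 0 within a group, so these values are not independent of those in low N root 3. High N root 1 was below for all 6, and high N root 3 was above for 5, Spo18570 being the exception. High N root 2 was split, with 2 genes above. In these high N root libraries every deviation of the 6 genes lay within the 5th to 95th percentile of all genes. High N root 3 and low N root 3 thus departed in opposite directions, and the root markers, high in high N root 3, were lowest of the low N root libraries in low N root 3 (171 FPKM summed). The study reports these markers as induced in root by N stress, and their part in the deviations was not tested.

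Over the 6 root libraries, the deviations from group means had a Pearson r of 0.41 to 0.97 over the 15 pairs of genes, with a median of 0.79, and a Spearman rho of 0.54 to 1, with a median of 0.77. The pairs share libraries and normalization, so the coefficients are a description. Without the 2 libraries farthest from the median the pairs ranged from -0.17 to 0.99. Without low N root 3 the median r fell from 0.79 to 0.58 and the lowest was -0.50, so much of the covariation rests on that library. In leaf the isomerase pair had r = 0.83 and rho = 0.94 over 6 libraries, and r = 0.60 without the 2 farthest. Over all 12 libraries, where the differences between groups set the value, r was 0.954 to 0.999.

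**Figure D5:**
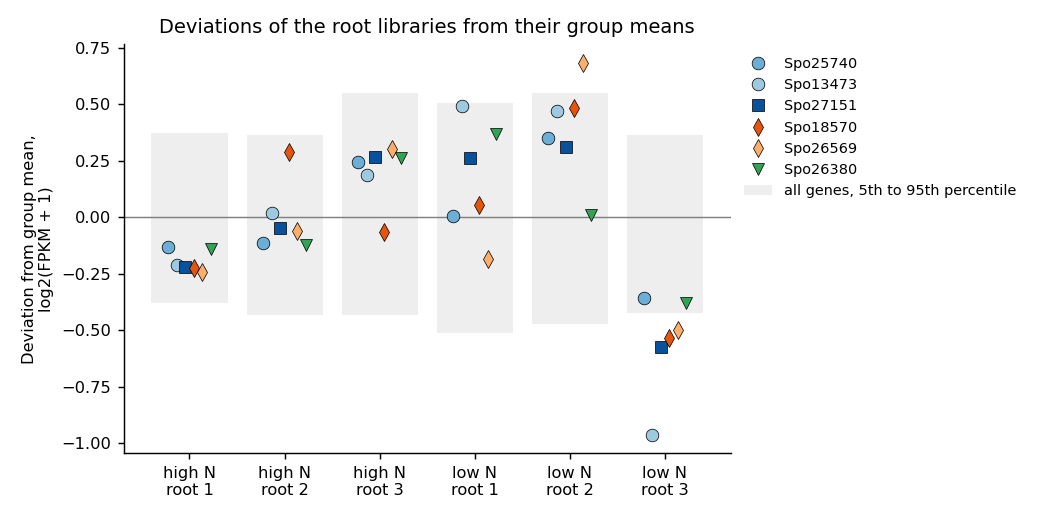
Deviation of each gene from its group mean on log2(FPKM + 1) in the 6 root libraries. Markers are genes and grey bars span the 5th to the 95th percentile of all genes with a mean of at least 1 FPKM, and all 6 markers lie below 0 in high N root 1 and low N root 3 and above 0 in low N root 2.

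Genes whose pattern was most like that of the 6 were found by the Pearson r of log2(FPKM + 1) with their mean standardised profile over 12 libraries, among 18411 genes. The highest were Spo20067 and Spo25055 (auxin-binding proteins, r = 0.997 and 0.995), Spo02868 (2-hydroxyisoflavanone dehydratase, r = 0.996), Spo23090 (a probable caffeoyl-CoA O-methyltransferase, r = 0.995) and Spo09185 (a cytochrome P450, r = 0.995). The members themselves had r of 0.984 to 0.997, and 50 other genes reached the lowest of these. Spo25055 had 0 FPKM in all leaf libraries, a mean of 302 FPKM in high N root and a mean of 61.0 FPKM in low N root. With deviations from group means in place of the profile, the named genes most like the 6 were Spo04843 (an F-box protein, r = 0.916) and Spo11939 (an ethylene-responsive transcription factor, r = 0.911), and 116 other genes reached the lowest member, 0.704.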

How the data were processed

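RNA from leaf and root was sequenced as read pairs on an Illumina HiSeq. The authors deposited FPKM for 25495 genes in 12 libraries, with no scaling between libraries beyond depth and gene length. Their text names TopHat v2.0.12, Bowtie v2.2.3 and HTSeq v0.6.1, while the submitters' processing notes name fastp, HISAT2 2.1.0 and featureCounts, and which of them made the values is not given in the sources used here. The authors called genes at an unadjusted p-value below 0.05. No column beyond those of the 12 libraries was present (0 others). Library names give the groups. By the study's methods the replicates are separate plants, and whether a leaf and a root library share a plant is not stated.

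Fragments and gene lengths were worked back for 23015 genes, all within 0.001 of a whole fragment. The other 2480 genes were 0 in every library. At these depths 3 fragments on a gene of 1 kb are 0.161 to 0.192 FPKM. Fragments were tested as an alternative with voom.

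High N was compared with low N within leaf and within root, and root with leaf over group means, with limma 3.58.1 (R 4.3.3). The values were log2(FPKM + 1), the moderated variance followed a trend, genes averaging under 1 FPKM in the libraries compared were left out, and p-values were adjusted by Benjamini-Hochberg over all genes tested. For the 6 genes the comparison within root and that between tissues are described with no test. The shares of the isomerases were compared by an exact permutation test, 400 arrangements within N supply. The planned test of the shares of chalcone synthases was not made, because 1 leaf library held 0 fragments of them. The working back of fragments and the limma fit were tested on simulated data. Tables and figures came from Python 3.11.15 with SciPy 1.17.1, NumPy 2.4.6, matplotlib 3.10.9 and pandas 2.3.3.

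Named are the 6 genes, pathway genes of the study's tables, tissue markers and the 5 genes most like the 6 by each of 2 measures (named ones and at most 2 without a name in the study's tables). The members and lists were chosen with earlier results of these data known. None of the identifiers matched the reference table, so gene names are those of the study and no sequence is shown. Alternatives were leaving out each library, a replicate block, voom, array weights, all 4 groups in 1 fit, no variance trend, quantile normalization, median-of-ratios scaling, a pseudocount of 0.1, and no filter or one at 5 FPKM.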

Additional observations from a re-analysis of the deposited data

Results flagged for a closer look

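For 3 genes, the high N and low N libraries were separate in both tissues and in opposite directions, higher under high N in root and lower under high N in leaf. The root minus leaf difference of the log2 fold changes was 3.80 for the isomerase Spo18570 (2.77 in root and -1.02 in leaf). It was 3.20 for the isomerase Spo26569 (2.15 and -1.05) and 2.46 for the 4-coumarate-CoA ligase Spo10338 (1.43 and -1.03). This gap between leaf and root was not tested, since the genes were chosen by the study on N differences in these libraries.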

How the results depend on the processing

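The isomerases both had p below 0.05 in leaf under 10 other settings, with adjusted p-values of 0.171 to 0.404 for Spo18570 and 0.124 to 0.396 for Spo26569. With each leaf library left out, 1 to 2 of them did: without high N leaf 1 only Spo26569 remained. The median root log2 fold change was 2.44 to 2.69 under other settings and 2.11 to 2.65 with each root library left out. The isomerase share difference was -0.71 to 2.56 percentage points with each library left out, reversed to -0.71 without high N leaf 2 and to -0.21 without high N root 2, with exact permutation p-values of 0.51 to 0.975. The mean r of deviations over 12 libraries, 0.589, was 0.370 with a pseudocount of 0.1 (the cause was not tested) and 0.301 to 0.653 with each library left out, lowest without low N root 3.

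The replicate numbers were not taken to pair the samples, since same-numbered deviations correlated at -0.01 to 0.27 in leaf, -0.02 to 0.10 in root, 0.09 to 0.37 between tissues under high N and 0.10 to 0.30 between tissues under low N. Between tissues 5 of the 6 pairs correlated best with their own number, a hint from the data and not from the labels, but not every pair was over 0.1. With the replicate number as a block, the isomerases had limma adjusted p = 0.224 and 0.213 in leaf and the count of 2 members in leaf did not change. Genes with p below 0.05 in leaf went from 1850 to 2208, and adjusted calls in root from 5 to 0. The share difference stayed at 1.12 points under this pairing (p = 0.906, exact sign flips of 6 pairs). Depth limits the 4 genes with at most 30 leaf fragments, for which no leaf response to N could be read.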
